A study of Mus musculus with 2 samples.

Results

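The genes described here carry glucose to pyruvate and decide what becomes of the pyruvate. They were taken by name as 32 genes of glucose uptake, glycolysis, lactate formation and transport, and pyruvate entry into mitochondria, and all 32 had unique molecular identifiers (UMIs, each standing for 1 captured mRNA) in more than 3 kept cells, as did 16673 of the 28692 genes listed. The rarest were *Slc2a3*, found in 96 kept cells, and *Aldoc*, found in 117.

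The cells came from E14.5 retinas of *LHX4::GFP* mice, strain Tg(Lhx4::EGFP)KN199Gsat/Mmucd, in which a bacterial artificial chromosome drives EGFP from *Lhx4* sequence and which the study kept as heterozygotes. Retinas from 2 litters were pooled, dissociated and sorted by GFP, and 1 droplet library with 3′ tags was made from the GFP+ cells, labelled cone photoreceptors, and 1 from the GFP− cells, labelled retinal cells. Both gates therefore share the transgene, the age and the animals, and neither had a replicate. No comparison below carries a test, and every interval is a 95% exact interval that covers counting error only.

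Glycolysis splits glucose into pyruvate in the cytosol, and most of its steps can be run by more than one enzyme encoded by separate genes (isozymes). Pyruvate is then either reduced to lactate by lactate dehydrogenase and exported, or carried into mitochondria and oxidised by the pyruvate dehydrogenase complex, which pyruvate dehydrogenase kinases switch off. Dividing progenitors are known for making lactate even where oxygen is present, and mature photoreceptors are known for the same habit.

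The GFP+ library held 3689 kept cells with 15503658 UMIs (median 3894 per cell) and the GFP− library 3389 kept cells with 30094636 UMIs (median 8848), and 20 barcodes occurred in both. Cells were placed by marker UMIs, with at least 3 of 8 markers of 1 list and at most 2 of any other, and none of the markers is among the 32 genes. This gave 3572 GFP+ cones and, in the GFP− library, 2319 progenitors, 325 ganglion cells, 176 amacrine cells and 61 cones, while 27 GFP+ cells were placed as progenitors. The study assigned its own cluster with *Tfap2b* and *Ptf1a* to amacrine and horizontal cells together, as hard to separate this early. Both genes are among the amacrine markers used here, so the group called amacrine may hold horizontal cells. The label of the GFP+ gate was matched by its markers, since 96.828% of its cells were placed as cones, against 1.8% of GFP− cells by the same rule. The summed cone markers, *Lhx4* among them, stood at 5328 counts per 1000000 UMIs (CPM) in GFP+ cones and 7.76 CPM in GFP− progenitors, a contrast that the placing itself sets. The GFP− cones stood between the gates, with 2843 CPM of cone markers and 229 CPM of progenitor markers, where GFP+ cones had 152 CPM.

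Summed over the 32 genes, glycolysis mRNA was lowest in the GFP+ cones. It made up 6004 CPM there (5964 to 6043), 6754 CPM in amacrine cells, 7630 CPM in ganglion cells, 8435 CPM in GFP− cones (8123 to 8755) and 9544 CPM in GFP− progenitors (9502 to 9586). The intervals of these 5 groups did not overlap. The few GFP+ cells placed as progenitors lay at the other end from the cones of their own library, at 10265 CPM (9855 to 10688). *Gapdh* and *Eno1* weighed heavily in these sums. They stood at 2144 and 1968 CPM in GFP− progenitors and at 820 and 137 CPM in GFP+ cones. In amacrine cells they stood at 1488 and 599 CPM, and in GFP− cones at 1126 and 412 CPM. Without them amacrine cells, not GFP+ cones, would be lowest, and GFP− cones, not progenitors, highest of the 5 groups.

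The cells also differed in their total UMIs, with medians of 3876 per GFP+ cone, 5072 per GFP− cone and 9129 per GFP− progenitor. When each cell was thinned to 3200 UMIs, the 32 genes took a median of 0.562% of a GFP+ cone's UMIs and 0.906% of a GFP− progenitor's. The middle 80% of cells spanned 0.375 to 0.844% among GFP+ cones and 0.531 to 1.41% among GFP− progenitors, so single cells of the groups overlapped widely. Thinning left out 562 GFP+ cones and 15 GFP− progenitors that were too shallow. Whether a cone holds less mRNA in all or was captured less well cannot be told apart, and CPM compare only the makeup of the mRNA.

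**Figure D1:**
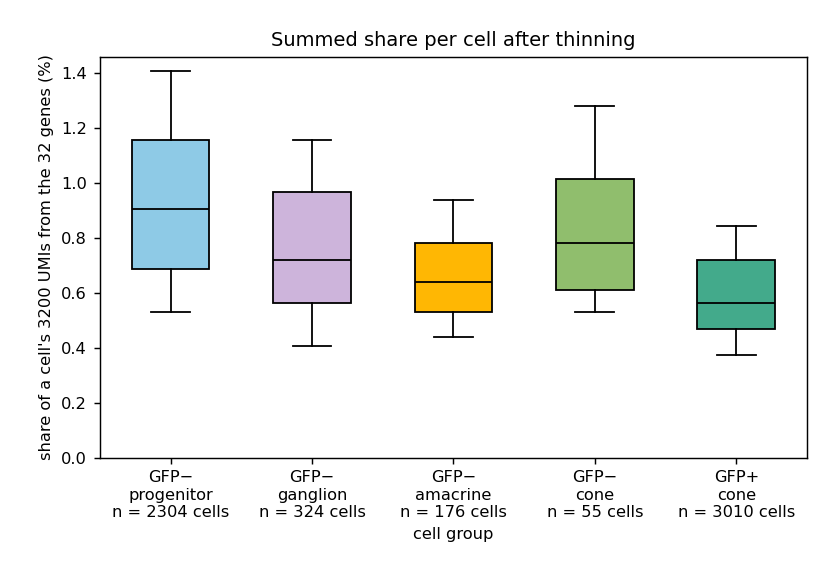
Share of a cell's UMIs that came from the 32 genes, in percent, after each cell was thinned to 3200 UMIs, for the 5 cell groups. Boxes span the middle 50% of cells with the median as a line, and whiskers run from the 10th to the 90th percentile; the GFP+ cones have the lowest median, 0.562%, and the GFP− progenitors the highest, 0.906%.

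The genes differed in direction. A gene is called higher or lower here when its CPM ratio is at least 1.5 or at most its inverse and it has at least 10 CPM in either group. Of the 26 genes with that level, 5 were higher and 11 lower in GFP+ cones than in GFP− progenitors, while among all 9312 genes with that level 42.7% were higher and 17.2% lower. The median ratio was 0.856 over the 26 genes and 1.33 over all genes, a shift of 0.42 on the log2 scale that stood at 0.41 with every cell thinned to 3200 UMIs. Scaled by the trimmed mean of M values (TMM), which removes most of that shift, 3 were higher and 13 lower: *Gpi1* and *Pdhb* were no longer called, and *Aldoa* and *Tpi1* joined the lower genes, while of all genes 27.7% were then higher and 26.3% lower. The whole gates gave a like picture, with 4 genes higher and 11 lower of 26 in GFP+ cells, against 38.1% and 16.2% of all genes. With TMM scaling the gates gave 2 higher and 14 lower, against 24% and 24.4% of all genes.

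**Figure D2:**
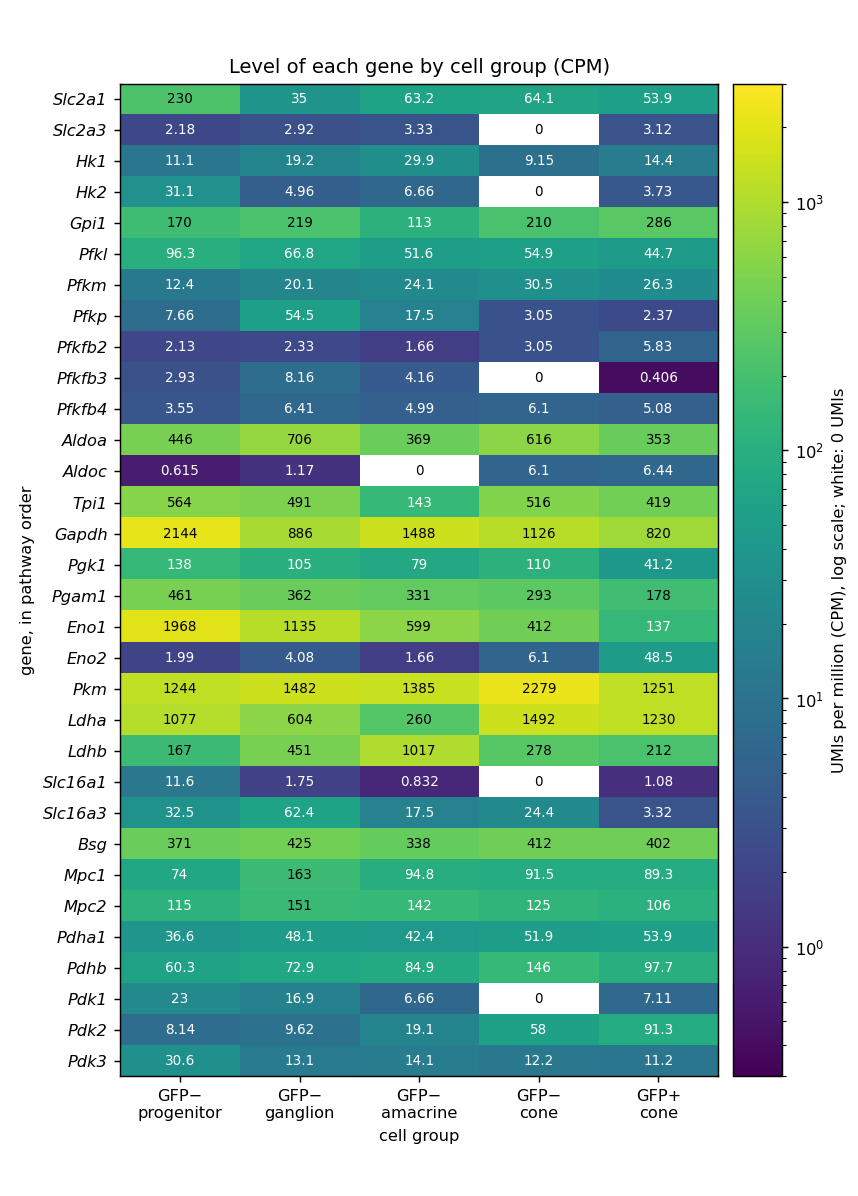
Level of each of the 32 genes, in CPM, in the 5 cell groups, with genes in pathway order from glucose uptake at the top to the pyruvate dehydrogenase kinases at the bottom. Colour is on a log scale and the printed numbers are the CPM; *Eno1* runs from 1968 CPM in GFP− progenitors to 137 CPM in GFP+ cones while *Eno2* runs from 1.99 to 48.5 CPM.

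Enolase gave the widest contrast. *Eno1* (chr4:150236721-150248879, plus strand, GRCm38) encodes the enolase of most tissues, and *Eno2* (chr6:124760053-124769673, minus strand) encodes the neuronal enolase, long used as a marker of neurons. The promoter windows of both are shown because the genes differ in direction, with those of *Slc2a1* and *Pdk2*, another gene of each direction. They run from 250 bases before to 50 bases after the start in RefSeq (GRCm38.p6), written along the gene's strand. The *Eno1* window is the first of 3 listed, at chr4:150236458-150236757 on the plus strand, the *Eno2* window lies at chr6:124769624-124769923 on the minus strand, the *Slc2a1* window at chr4:119108495-119108794 on the plus strand, and the *Pdk2* window is the first of 2 listed, at chr11:95041322-95041621 on the minus strand. Capitals mark ACGTG or GCGTG on either strand, the core that hypoxia-inducible factor (HIF) is known to bind.
Eno1: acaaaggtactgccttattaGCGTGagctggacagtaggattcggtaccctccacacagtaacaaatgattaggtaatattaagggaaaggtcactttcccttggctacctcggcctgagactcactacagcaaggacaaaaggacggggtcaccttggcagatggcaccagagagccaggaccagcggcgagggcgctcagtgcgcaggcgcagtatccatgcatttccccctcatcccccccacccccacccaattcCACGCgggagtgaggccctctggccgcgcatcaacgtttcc
Eno2: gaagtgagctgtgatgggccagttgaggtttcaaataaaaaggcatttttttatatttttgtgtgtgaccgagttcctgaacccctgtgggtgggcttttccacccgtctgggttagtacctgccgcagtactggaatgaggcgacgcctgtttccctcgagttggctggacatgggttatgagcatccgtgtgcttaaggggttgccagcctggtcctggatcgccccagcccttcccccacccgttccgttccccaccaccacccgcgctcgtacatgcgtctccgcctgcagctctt
Slc2a1: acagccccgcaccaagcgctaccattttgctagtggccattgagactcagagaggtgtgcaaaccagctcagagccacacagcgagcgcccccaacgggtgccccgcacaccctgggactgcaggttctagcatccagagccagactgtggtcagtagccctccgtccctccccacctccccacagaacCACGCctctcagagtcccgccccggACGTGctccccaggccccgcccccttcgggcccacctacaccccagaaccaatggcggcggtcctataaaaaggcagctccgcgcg
Pdk2: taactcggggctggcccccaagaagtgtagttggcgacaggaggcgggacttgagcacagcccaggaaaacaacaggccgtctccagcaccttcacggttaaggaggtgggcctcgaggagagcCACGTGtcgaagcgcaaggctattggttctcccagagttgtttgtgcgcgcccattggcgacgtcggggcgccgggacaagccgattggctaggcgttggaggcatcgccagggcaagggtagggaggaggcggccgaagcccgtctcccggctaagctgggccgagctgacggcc

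*Eno1* stood at 1968 CPM in GFP− progenitors, 1135 in ganglion cells, 599 in amacrine cells, 412 in GFP− cones and 137 in GFP+ cones. It was thus 14.4-fold lower in GFP+ cones than in GFP− progenitors (13.8 to 15.1). Within the GFP+ library it was 17-fold lower in cones than in the 27 cells placed as progenitors (15.4 to 18.7), which held 2319 CPM. Within the GFP− library it was 4.78-fold lower in cones than in progenitors (4.04 to 5.70), on 61 cones. The part of the library in the 14.4-fold difference was not tested. A near-identical copy listed as *Eno1b* had 7.52 CPM in GFP+ cones and 100 CPM in GFP− progenitors, the same direction, and how reads were split between the copies is uncertain.

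*Eno2* ran the other way, with 48.5 CPM in GFP+ cones, 6.10 in GFP− cones, 4.08 in ganglion cells, 1.99 in GFP− progenitors and 1.66 in amacrine cells. It was 24.4-fold higher in GFP+ cones than in GFP− progenitors (17.9 to 34.2) and 7.95-fold higher than in GFP− cones, where it rested on 2 UMIs (2.19 to 65.8). The ganglion cells, which are neurons too, held 14 *Eno2* UMIs in 325 cells. As a share of the 2 enolases, *Eno2* made up 26.2% in GFP+ cones (24.6 to 27.9), 1.46% in GFP− cones, 0.359% in ganglion cells, 0.277% in amacrine cells and 0.101% in GFP− progenitors. Capture that differs between the genes shifts the shares themselves, so they are read only for their order between cell groups.

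After thinning to 3200 UMIs, an *Eno1* UMI was seen in 31.5% of GFP+ cones (29.9 to 33.2) and in 98% of GFP− progenitors, and an *Eno2* UMI in 14.3% and 0.608% of them. Markers of the placing lists are given beside these, though the placing holds them low in the opposite group, so they do not measure free RNA. The progenitor genes *Fgf15* and *Ccnd1* were seen in 0.698% and 2.33% of thinned GFP+ cones against 87% and 92.1% of progenitors, and the cone gene *Gnb3* was seen in 0.217% of thinned progenitors against 79.5% of GFP+ cones. *Eno1* in GFP+ cones stood at 6.94% of its CPM in GFP− progenitors, where *Fgf15* stood at 0.103% and *Ccnd1* at 0.393%. In GFP− cones *Eno1* stood at 20.9% of the progenitor CPM, *Fgf15* at 2.82% and *Ccnd1* at 1.04%. The part of free RNA in the low values of *Eno1* and *Eno2* was not tested.

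**Figure D3:**
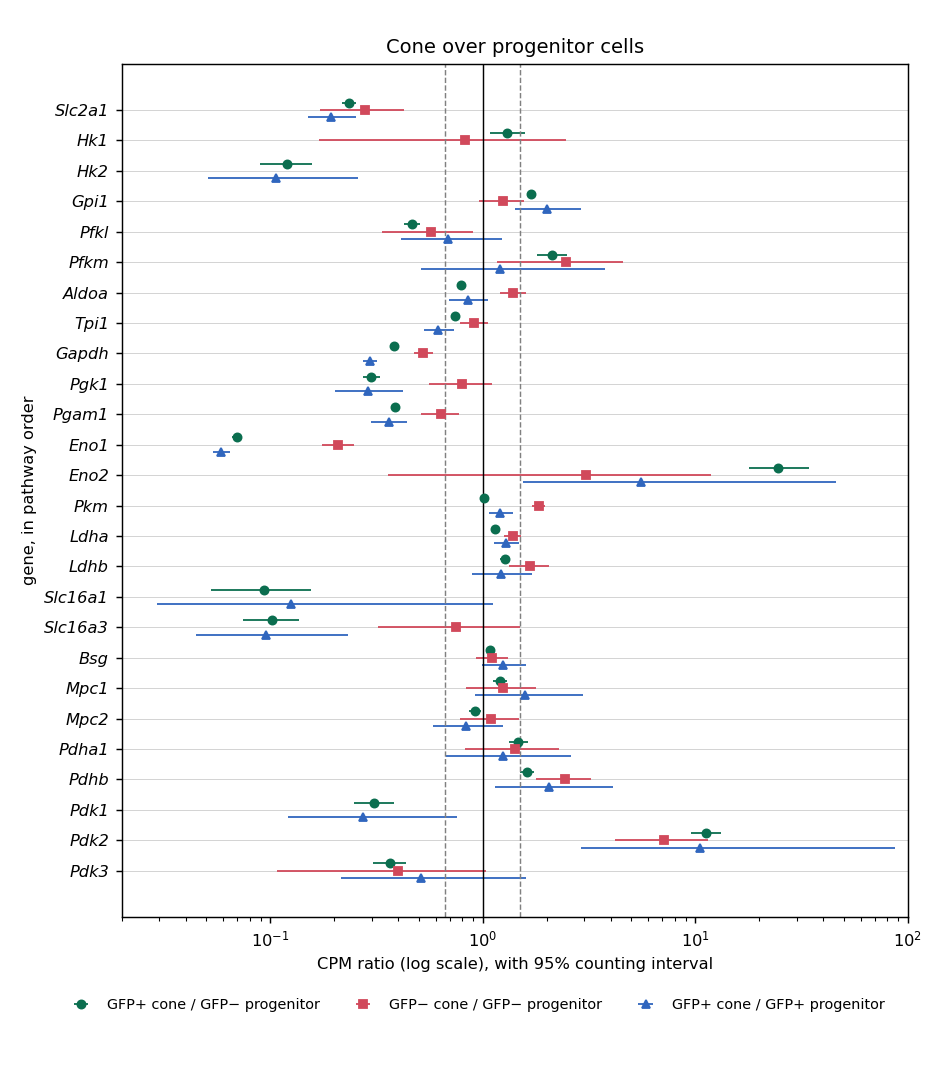
CPM ratio of cones over progenitors, on a log axis with 95% counting intervals, for the 26 genes with at least 10 CPM in GFP+ cones or GFP− progenitors; circles compare the 2 libraries, squares stay within the GFP− library and triangles within the GFP+ library. Dashed lines mark 1.5-fold in each direction and genes at 0 UMIs in a group have no symbol; *Eno1* lies left of the lines and *Pdk2* right of them for all 3 symbols.

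Glucose uptake and the first, committing steps followed. *Slc2a1*, which encodes the glucose transporter GLUT1, stood at 230 CPM in GFP− progenitors and at 53.9 CPM in GFP+ cones, 4.27-fold lower (3.96 to 4.61). It was low in each of the other groups as well, at 64.1 CPM in GFP− cones, 63.2 in amacrine cells and 35.0 in ganglion cells, and the intervals of the cone and amacrine values overlapped. *Slc2a3*, encoding the neuronal transporter GLUT3, stayed between 2.18 and 3.33 CPM in progenitors, ganglion cells, amacrine cells and GFP+ cones and had 0 UMIs in GFP− cones.

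Hexokinase traps glucose in the cell, and the balance of *Hk1* and *Hk2* differed between progenitors and the GFP+ cones, ganglion cells and amacrine cells. *Hk2* had 31.1 CPM in GFP− progenitors and 3.73 CPM in GFP+ cones, 8.34-fold lower (6.33 to 11.2), with 6.66 CPM in amacrine cells and 4.96 in ganglion cells. GFP− cones had 0 *Hk2* UMIs, which makes them at least 3.40-fold lower than progenitors when 3 UMIs are allowed. *Hk1* stood at 11.1 CPM in GFP− progenitors, 14.4 in GFP+ cones, 19.2 in ganglion cells and 29.9 in amacrine cells. *Hk1* therefore made up 26.3% of the pair in GFP− progenitors (23.4 to 29.3), but 79.5% in GFP+ cones, 79.5% in ganglion cells and 81.8% in amacrine cells, with intervals of those last 3 groups that overlapped. GFP− cones had 3 UMIs of the pair, too few for a share.

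Phosphofructokinase, the main point of control, is encoded by 3 genes. *Pfkl* took 82.7% of their UMIs in GFP− progenitors, 60.9% in GFP+ cones and 47.2% in ganglion cells. *Pfkm* took 35.8% in GFP+ cones (33.0 to 38.8) and 10.7% in GFP− progenitors, and in GFP− cones it stood at 34.5% of 29 UMIs. Its level was 26.3 CPM in GFP+ cones and 12.4 CPM in GFP− progenitors, 2.11-fold higher (1.80 to 2.48). Within the GFP+ library its ratio over the cells placed as progenitors was 1.21 (0.513 to 3.74) and was not called, nor was that of *Pfkl* (0.685, 0.412 to 1.23). *Pfkm* also shares a strand with the overlapping gene *Gm26513* and reads could be split between them. *Pfkp*, the platelet form that brain also uses, was highest in ganglion cells among the 5 groups and is described with them below. *Pfkl* still took the larger share there. The *Pfkfb* genes, whose products make and remove an activator of phosphofructokinase, were rare throughout: *Pfkfb2* reached 5.83 CPM in GFP+ cones against 2.13 in GFP− progenitors, *Pfkfb3* 0.406 against 2.93, and *Pfkfb4* 5.08 against 3.55.

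The middle steps were mixed. *Gapdh*, encoding the dehydrogenase that makes NADH, stood at 2144 CPM in GFP− progenitors and 820 CPM in GFP+ cones, 2.61-fold lower (2.56 to 2.67). *Pgk1*, the first step that returns ATP, was 3.34-fold lower (3.06 to 3.65), and *Pgam1*, the mutase before enolase, 2.60-fold lower (2.49 to 2.71). All 3 were also lower in GFP+ cones than in the GFP+ cells placed as progenitors, by 3.40-fold, 3.49-fold and 2.77-fold. *Tpi1* (419 against 564 CPM) and *Aldoa* (353 against 446 CPM) were not called, and *Gpi1*, the isomerase after hexokinase, was 1.69-fold higher (1.61 to 1.76). *Aldoc*, the aldolase of brain, was rare but lay on the side of *Eno2*. It had 95 UMIs (6.44 CPM) in GFP+ cones and 13 UMIs (0.615 CPM) in GFP− progenitors, a ratio of 10.5 (5.83 to 20.4), under the 10 CPM needed for a call.

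At the end of the pathway GFP+ cones and GFP− progenitors were closer. *Pkm*, encoding pyruvate kinase, stood at 1251 CPM in GFP+ cones and 1244 CPM in GFP− progenitors, a ratio of 1.01 (0.987 to 1.02). *Ldha*, encoding the lactate dehydrogenase subunit that favours lactate, stood at 1230 and 1077 CPM, and *Ldhb*, encoding the subunit of oxidative tissues, at 212 and 167 CPM. Both lay within 1.5-fold, so *Ldhb* was 14.7% of the pair in GFP+ cones and 13.5% in GFP− progenitors. Among the 5 groups, *Pkm* and *Ldha* were highest in the GFP− cones, at 2279 and 1492 CPM.

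The lactate carriers lay apart from *Ldha*. *Slc16a1*, encoding MCT1, had 11.6 CPM in GFP− progenitors and 1.08 CPM in GFP+ cones, 10.7-fold lower (6.45 to 19.0), and *Slc16a3*, encoding the exporter MCT4, had 32.5 and 3.32 CPM, 9.79-fold lower (7.32 to 13.4). *Slc16a3* differed between the cone groups, since it stood at 24.4 CPM in GFP− cones, on 8 UMIs, 7.35-fold above GFP+ cones (3.01 to 15.7). All 8 UMIs lay in GFP− cones that also held a progenitor marker UMI, but all except 16 of the 61 GFP− cones held one. *Bsg*, encoding the basigin that carries these transporters to the membrane, stayed within 338 to 425 CPM across the 5 groups.

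In mitochondria the kinases showed the widest differences. *Pdk2* stood at 91.3 CPM in GFP+ cones, 58.0 in GFP− cones, 19.1 in amacrine cells, 9.62 in ganglion cells and 8.14 in GFP− progenitors. It was 11.2-fold higher in GFP+ cones than in GFP− progenitors (9.56 to 13.2), and 7.12-fold higher in cones than in progenitors within the GFP− library (4.19 to 11.5). *Pdk1*, the kinase best known as a HIF target, was 3.24-fold lower in GFP+ cones (2.62 to 4.04) and had 0 UMIs in GFP− cones, at least 2.52-fold lower with 3 UMIs allowed. *Pdk3* was 2.73-fold lower in GFP+ cones (2.30 to 3.26). *Pdk2* was thus 83.3% of the 3 kinases in GFP+ cones (81.4 to 85.1) and 82.6% of 23 UMIs in GFP− cones, against 47.9% in amacrine cells, 24.3% in ganglion cells and 13.2% in GFP− progenitors (11.4 to 15.1).

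The complex and its carrier differed less. *Pdha1* and *Pdhb*, encoding the parts of its first enzyme, were 1.47-fold (1.33 to 1.63) and 1.62-fold (1.5 to 1.75) higher in GFP+ cones than in GFP− progenitors, close to the 1.33-fold of the median gene. *Mpc1* and *Mpc2*, encoding the subunits of the mitochondrial pyruvate carrier, had ratios of 1.21 and 0.921.

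Counted per cell rather than as CPM, 4 genes had more UMIs in a GFP+ cone than in a GFP− progenitor, namely *Eno2* (0.200 against 0.0181), *Pdk2* (0.377 against 0.0742), *Aldoc* (0.0266 against 0.00561) and *Pfkfb2* (0.0241 against 0.0194). The other 28 had fewer. *Pkm*, with near equal CPM, had 5.17 UMIs per GFP+ cone and 11.3 per GFP− progenitor.

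**Figure D4:**
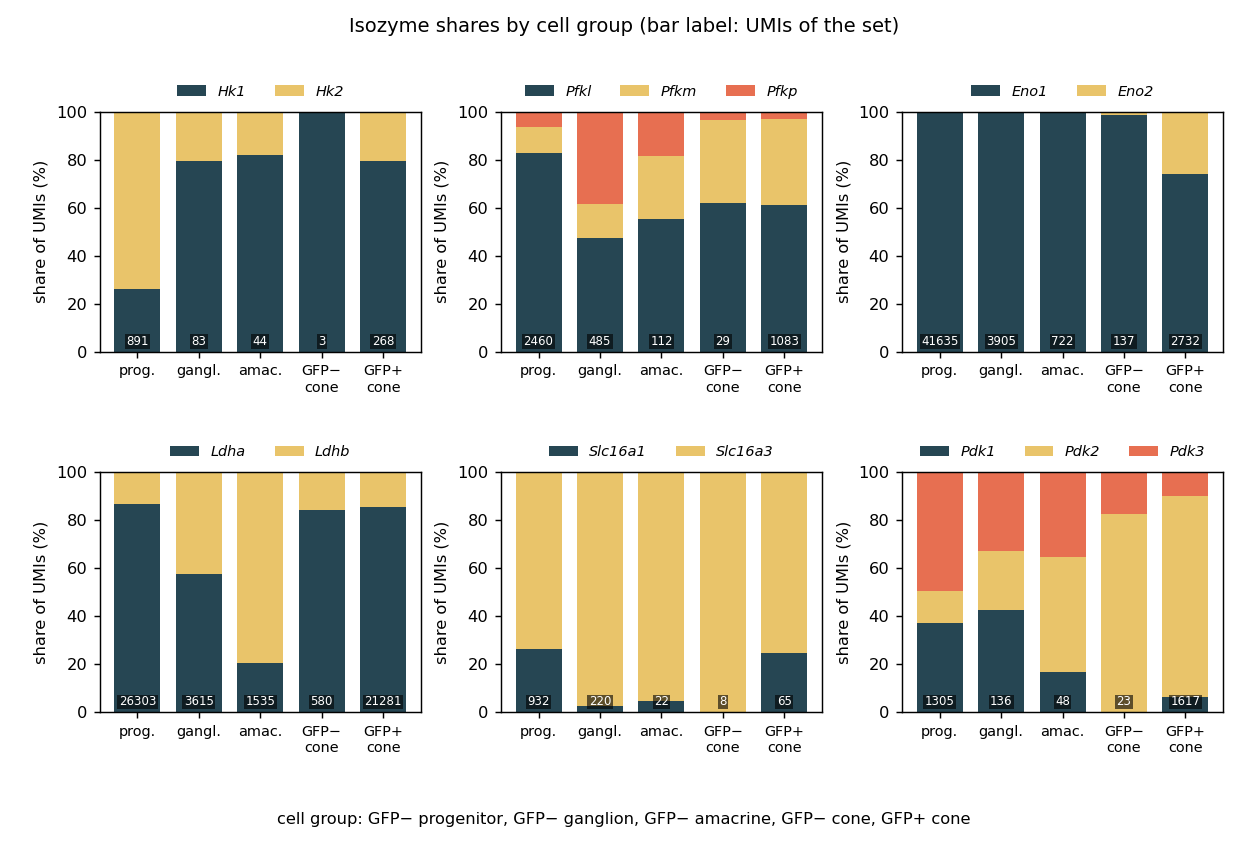
Share of the UMIs of each isozyme set, in percent, taken by each gene in the 5 cell groups, with the number of UMIs of the set printed on each bar. *Hk1* passes from 26.3% in GFP− progenitors to about 80% in ganglion cells, amacrine cells and GFP+ cones, *Eno2* reaches 26.2% in GFP+ cones, *Ldhb* 79.7% in amacrine cells and *Pdk2* 83.3% in GFP+ cones.

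Cones were also set against progenitors within each library. GFP− cones against GFP− progenitors gave 5 genes higher and 9 lower of 25, where 35.5% and 22.1% of all genes were called. With TMM scaling 3 were higher and 12 lower, against 22.8% and 31.8%. Without that scaling the higher ones were *Pdk2*, *Pfkm* (2.45), *Pdhb* (2.43), *Pkm* (1.83) and *Ldhb* (1.66), and *Eno2* and *Gpi1* were not called. The lower ones were *Hk2*, *Pfkl*, *Gapdh*, *Pgam1*, *Eno1*, *Slc2a1*, *Slc16a1*, *Pdk1* and *Pdk3*. Of these *Hk2*, *Slc16a1* and *Pdk1* had 0 UMIs in GFP− cones. With 3 UMIs allowed, *Slc16a1* was only at least 1.27-fold lower, short of the 1.5-fold rule. The *Pdk3* interval, 0.108 to 1.03, held 1. GFP+ cones against the 27 GFP+ cells placed as progenitors gave 6 higher and 11 lower of 26, with 43.9% and 20.7% of all genes called, and there *Eno2* was 5.57-fold higher on 2 progenitor UMIs (1.54 to 46.1). Some of these calls rest on little. *Hk1* was called higher on 0 progenitor UMIs, at least 1.11-fold with 3 UMIs allowed, short of the rule. The intervals of *Mpc1* (0.920 to 2.97) and *Pdk3* (0.216 to 1.60) held 1, and the lower call of *Pfkp* rested on 3 progenitor UMIs.

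GFP+ cones against GFP− cones gave 3 genes higher and 6 lower of 23, and 26.3% and 10.0% of all genes. *Eno1* (3.02-fold, 2.51 to 3.59), *Pgk1* (2.67-fold, 1.85 to 3.73), *Pkm* (1.82-fold, 1.69 to 1.96), *Aldoa* (1.75-fold, 1.51 to 2.01) and *Pgam1* (1.65-fold, 1.33 to 2.02) were lower in GFP+ cones, as was *Slc16a3*. The higher calls of *Hk1* (1.58) and *Pdk2* (1.57) had intervals whose lower end was at or below 1 (0.532 to 7.71 for *Hk1*). Of the 61 GFP− cones, 16 had no UMI of any progenitor marker, and against these alone *Eno1* was still lower in GFP+ cones (ratio 0.497) and *Pkm* too (0.660), but *Pgk1* turned to 1.5, *Pdk2* to 0.948 and *Eno2* moved to 1.76. These 16 cells held no *Slc16a3* UMI, so its ratio could not be formed, and its lower call rests on the other GFP− cones. With 8 *Slc16a3* UMIs over all 61 GFP− cones, 16 cells are too few to show whether the call holds in them. The GFP− cones are few and their difference from the GFP+ cones also crosses libraries, so gate, library and cell state cannot be told apart.

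Among GFP+ cones, several of the 32 genes were higher where *Fabp7*, encoding the brain-type fatty acid binding protein, was high. The 790 cones with at least 2 *Fabp7* UMIs held 6985 CPM of the 32 genes (6902 to 7069) and the other 2782 held 5661 CPM (5616 to 5705). Of 22 genes, 4 were higher and 0 lower in the *Fabp7*-high cones, where 2.07% and 5.62% of all genes were called. TMM scaling gave the same counts, against 2.81% and 4.16%. They were *Pgk1* (62.8 against 33.6 CPM, ratio 1.86, 1.58 to 2.20), *Eno1* (204 against 113 CPM, 1.80, 1.65 to 1.98), *Aldoa* (486 against 307 CPM, 1.58, 1.5 to 1.68) and *Pkm* (1707 against 1091 CPM, 1.56, 1.52 to 1.61). With no replicates there is no test behind the 0 lower genes. *Slc2a1* went the other way without reaching the rule (40.8 against 58.5 CPM, ratio 0.697, 0.581 to 0.832). *Eno2* went from 50.8 CPM in the other cones to 41.8 CPM in *Fabp7*-high ones, and its share of enolase from 31.0% (28.9 to 33.2) to 17% (14.7 to 19.6).

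Progenitor markers stood at 150 CPM in *Fabp7*-high cones and 153 CPM in the others. The placing holds them low in both, so near equal sums do not show equal progenitor content. Over all GFP+ cones most of the sum was *Lhx2* (90.4 CPM) and *Sox2* (30.1 CPM). Cone markers stood at 4551 CPM in *Fabp7*-high cones and 5600 CPM in the others, and the median UMIs per cell at 4517.5 and 3739. The part of these in the differences was not tested. The same split in the other library pointed the same way on few cells: among GFP− cones, 34 *Fabp7*-high cells stood above 27 others in *Aldoa* (711 against 483 CPM, ratio 1.47, 1.09 to 2.01), *Eno1* (486 against 307, 1.58, 1.09 to 2.33), *Pkm* (2521 against 1940, 1.30, 1.12 to 1.52) and *Pgk1* (1.86, 0.867 to 4.32). In that split the *Fabp7*-high cells held 267 CPM of progenitor markers against 176 CPM, and 120 CPM of ganglion markers against 80.5 CPM. Their cone markers stood at 2379 CPM against 3492 CPM, and the part of these was not tested either. *Fabp7*-high cells were 55.7% of GFP− cones and 22.1% of GFP+ cones. The limit of 2 UMIs was the same though the cells differed in depth, with medians of 5072 and 3876 UMIs.

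The 292 GFP+ cones with at least 3 of 8 stress markers, such as the amino acid carrier genes *Slc7a3* and *Slc7a5*, held 4756 CPM of the 32 genes (4637 to 4877) against 6123 CPM in the other 3280 cones (6081 to 6165). Of 22 genes, 3 were higher (*Hk1* 1.59, *Eno2* 1.53 and *Pdk3* 1.53) and 1 lower (*Ldha*, 817 against 1269 CPM, ratio 0.644), while 9.18% and 4.5% of all genes were called. The *Pdk3* interval, 0.919 to 2.43, held 1. TMM scaling left 0 higher and made *Tpi1*, *Eno1* and *Pkm* join *Ldha* as lower, against 7.26% and 6.25% of all genes. Enolase again shifted in makeup, with *Eno2* at 42.1% in these cones (35.5 to 49.0) and 24.8% in the others (23.2 to 26.6). Immediate early genes, which respond to handling, summed to 728 CPM in the stress-marker cones and 487 CPM in the others. *Atf3* is in both this list and the stress markers, so the selection itself sets part of that gap. The part of the immediate early genes in these differences was not tested. Without any cone that had a stress-marker UMI, GFP+ cones still gave 5 genes higher and 11 lower than GFP− progenitors.

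Ganglion cells held more of the summed mRNA than GFP+ cones and less than GFP− cones. Against GFP− progenitors of the same library, 7 of 25 genes were higher and 7 lower, where 24.9% and 25.6% of all genes were called, so the counts lay near the background. *Pfkp* led, with 54.5 CPM in ganglion cells, 17.5 in amacrine cells, 7.66 in progenitors and 2.37 in GFP+ cones, 7.11-fold above progenitors (5.73 to 8.83), and it made up 38.6% of phosphofructokinase UMIs (34.2 to 43.1) against 6.59% in progenitors. *Ldhb* (451 against 167 CPM, ratio 2.69), *Mpc1* (163 against 74.0 CPM, 2.20), *Slc16a3* (62.4 against 32.5 CPM, 1.92), *Hk1*, *Pfkm* and *Aldoa* (706 against 446 CPM, 1.58) were the other higher genes. *Slc2a1* was 6.58-fold lower (5.49 to 7.95), *Slc16a1* 6.63-fold, *Hk2* 6.27-fold, *Gapdh* 2.42-fold, *Pdk3* 2.33-fold, *Ldha* 1.78-fold and *Eno1* 1.73-fold. *Mpc1*, *Mpc2*, *Aldoa* and *Slc16a3* were thus at their highest in ganglion cells among the 5 groups. These values rest on 325 ganglion cells, where 693 were placed without the upper limit on genes per cell. Without that limit 5 of 25 genes were higher and 9 lower than in progenitors, against 26.5% and 27.4% of all genes. *Slc16a3* and *Pfkm* were then no longer called higher, and *Pfkl* and *Pdk1* joined the lower genes.

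The cells placed as amacrine, which may include horizontal cells, were set apart by lactate dehydrogenase. *Ldhb* stood at 1017 CPM in amacrine cells, 451 in ganglion cells, 278 in GFP− cones, 212 in GFP+ cones and 167 in GFP− progenitors, 6.08-fold above the last (5.69 to 6.49). *Ldha* ran the opposite way, at 260 CPM in amacrine cells against 1077 CPM in progenitors, 4.15-fold lower (3.71 to 4.65). *Ldhb* made up 79.7% of the pair in amacrine cells (77.6 to 81.7), 42.7% in ganglion cells (41.1 to 44.4) and 13.5% in progenitors (13 to 13.9), and these intervals did not overlap.

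Over all, 5 of 26 genes were higher and 12 lower in amacrine cells than in progenitors, against 30.7% and 23.6% of all genes. With TMM scaling 5 were higher and 14 lower, *Gapdh* and *Pgam1* added, against 23.7% and 30.0%. Besides *Ldha*, *Tpi1* (143 against 564 CPM, 3.94-fold, 3.39 to 4.61), *Eno1* (3.29-fold, 3.05 to 3.54) and *Slc2a1* (3.64-fold, 2.90 to 4.63) were lower, and besides *Ldhb*, *Hk1* (2.71-fold), *Pdk2* (2.35-fold), *Pfkp* (2.28-fold) and *Pfkm* (1.94-fold) were higher. *Gpi1*, at 113 against 170 CPM, was called only just (ratio 0.666, 0.557 to 0.791). *Cldn5*, an endothelial gene, reached 329 CPM in this group while the 5 endothelial markers together reached 334 CPM, so the other 4 were near 0. Ganglion markers reached 464 CPM in it, mostly *Nefm* (252 CPM) and *Nefl* (182 CPM), against 5349 CPM in ganglion cells. The part of either in the result was not tested.

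**Figure D5:**
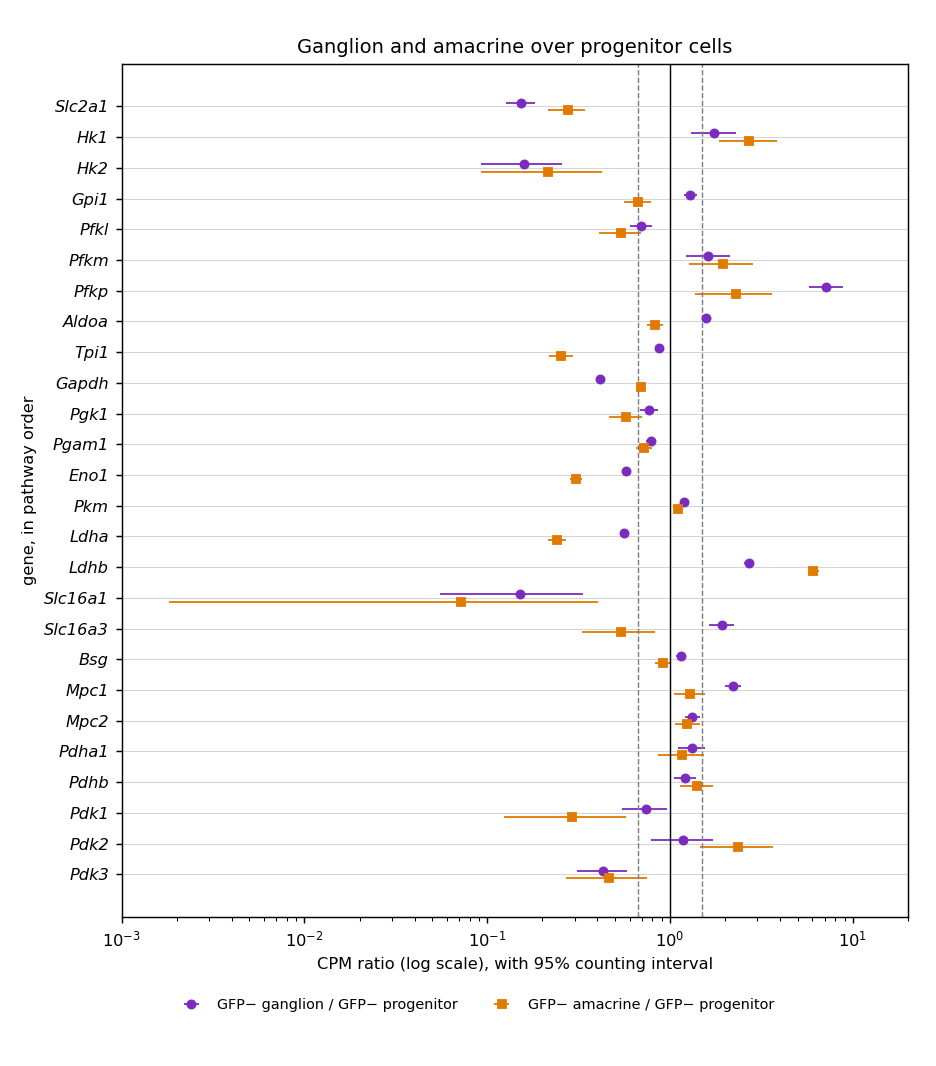
CPM ratio of ganglion cells (circles) and amacrine cells (squares) over progenitors, all within the GFP− library, on a log axis with 95% counting intervals; dashed lines mark 1.5-fold in each direction. *Pfkp* stands out in ganglion cells at 7.11 and *Ldhb* in amacrine cells at 6.08, with *Slc2a1* and *Hk2* left of the lines in both.

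Progenitors were also split by mitotic markers. The 1126 progenitors with UMIs of at least 3 of 8 mitotic markers held 9133 CPM of the 32 genes (9076 to 9190) and the 443 with none held 9927 CPM (9824 to 10030). Of 25 genes, 1 was higher and 2 lower, against 7.84% and 7.29% of all genes, so the counts lay near the background. TMM scaling gave the same counts, against 10.2% and 5.05%. *Ldhb* was lower (133 against 236 CPM, ratio 0.563, 0.517 to 0.614) and so was *Pdk2* (6.20 against 11.4 CPM, 0.545, 0.365 to 0.824). *Slc16a1* was higher at 1.63 (1.08 to 2.54) but turned to 0.505 when cells were thinned to 3200 UMIs before they were placed. Amacrine markers summed to 16.0 CPM in the mitotic and 89.8 CPM in the non-mitotic progenitors, and *Ldhb* is 1 of the 3 genes of the 32 that were highest in amacrine cells among the 5 groups; their part in its difference was not tested.

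Lists of related genes were read in the same way in GFP+ cones. Of 12 HIF targets outside glycolysis with 10 CPM, 7 were higher and 1 lower than in GFP− progenitors (median ratio 1.68), where 42.7% and 17.2% of all genes were called. With TMM scaling 3 were higher and 1 lower, against 27.7% and 26.3% of all genes, so the higher count then lay near the background. The same shares of all genes apply to the lists that follow. *Ndrg1* (146 against 23.3 CPM, 6.25-fold, 5.66 to 6.91), *Mxi1* (4.58-fold, 4.16 to 5.04) and *Ddit4* (3.25-fold, 2.98 to 3.56) were the 3 under both scalings, and *Higd1a* was lower (ratio 0.529). Within the GFP− library the cones also stood above progenitors in *Ndrg1* (4.45), *Mxi1* (2.90) and *Ddit4* (2.80). These were not particular to cones. *Mxi1* was also called higher than in progenitors in ganglion and amacrine cells, *Ddit4* in ganglion cells and *Ndrg1* in amacrine cells. *Slc2a1*, *Pdk1*, *Hk2* and *Slc16a3*, well known as HIF targets too, were lower in GFP+ cones than in GFP− progenitors, as given above. Other glycolysis genes known as HIF targets were not. *Ldha* had a ratio of 1.14 (1.12 to 1.16), and *Aldoa* (0.792, 0.765 to 0.819) was called lower only with TMM scaling. *Pfkfb4* (1.43) and *Aldoc* (10.5) lay above 1 but under the 10 CPM needed for a call. The genes named are examples and do not show a split between HIF targets inside and outside glycolysis. The part of HIF in either direction was not tested.

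Of the 16 genes of the tricarboxylic acid cycle, which oxidises what the pyruvate dehydrogenase complex delivers, 4 were higher and 1 lower in GFP+ cones (median ratio 1.22), but 1 was higher and 4 lower with TMM scaling. *Suclg2*, a subunit of the enzyme that forms GTP in the cycle, was lower under both scalings, at 5.15 against 52.2 CPM, 10.1-fold lower (8.04 to 13). It was called lower than in progenitors in ganglion cells, amacrine cells and GFP− cones as well. Of 7 genes of the pentose phosphate pathway, *G6pdx* was higher (1.53) and *Tkt* lower (0.634), but with TMM scaling 0 were higher and 3 lower. Of 5 regulators *Myc* (3.92) and *Mycn* (1.92) were higher, and with TMM scaling *Myc* was higher and *Hif1a* lower. Of the 26 further genes of glycolysis and pyruvate handling, 8 reached 10 CPM, and 7 were higher, led by *Eno3* (2.07), *Dld* (1.82) and *Adpgk* (1.78). TMM scaling left *Eno3* alone as higher.

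In amacrine cells 7 of 10 such genes were higher than in progenitors and 0 lower, under both scalings, where 30.7% and 23.6% of all genes were called, or 23.7% and 30.0% with TMM scaling. They included *Hkdc1*, which encodes a hexokinase-like protein (56.6 against 2.65 CPM, 21.4-fold, 14.8 to 31.0), and the phosphatase gene *Pdp1* (3.14-fold, 2.01 to 4.76), whose product opposes the pyruvate dehydrogenase kinases. The *Hk1* share given above covers *Hk1* and *Hk2* alone, and in amacrine cells *Hkdc1* stood above *Hk1* (29.9 CPM) and *Hk2* (6.66 CPM).

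Promoter windows were found for 30 of the 32 genes, all but *Bsg* and *Slc2a3*. The HIF core ACGTG or GCGTG, searched on both strands, was in at least 1 window of 27 of the 30 genes, against 65.2% of the 11830 genes with a window that were found in more than 3 kept cells and 46.7% of all 27025 genes with a window. All 11 genes lower in GFP+ cones than in GFP− progenitors had it, as did 3 of the 5 higher genes (*Pdhb*, *Pdk2* and *Pfkm*) and 8 of the 9 called neither way. Of the windows printed above, that of *Eno2* had 0 matches and that of *Eno1* had 2. The letters CACGTG, the E-box that MYC is known to bind, which hold ACGTG, were in 6 of 30 genes against 11.2% of the found genes, and TAATCC, the core bound by CRX, in 5 of 30 (16.7%) against 7.07%. The capitals in the *Pdk2* window are such an E-box. A match in letters is a description and not a bound site.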

How the data were processed

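UMI counts per gene and cell were read as deposited: the authors made them with Cell Ranger 2.1.1 on the mm10 reference, as filtered matrices of 3′ droplet libraries (chemistry v2), and the values are whole UMI counts that were not normalized. The library totals were 16010591 UMIs in 3728 GFP+ cells and 46778924 UMIs in 4445 GFP− cells. Following the limits of the study, with its mitochondrial limit read as a fraction, cells were kept that had above 250 but below 3500 genes and under 0.25 of their UMIs from mitochondrial genes, which removed 1.046% of GFP+ and 23.757% of GFP− cells. The upper limit takes out deep GFP− cells, mostly progenitors and ganglion cells, and was lifted as an alternative.

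Cells were placed by marker UMIs as described in the text. Levels are sums over a group's cells divided by the group's total, times 1000000 (CPM). Intervals are exact Poisson for levels, exact conditional intervals for ratios and Clopper-Pearson intervals for shares (95%). A gene at 0 UMIs was bounded with 3 UMIs. With 1 library per gate no p-value was computed. Doublets were called by Scrublet (scanpy 1.11.5, rate set to 0.03) and left in. It marked 55 GFP− cells, none of them kept, and 3 GFP+ cells, of which 2 were kept, so it says little about doublets among GFP+ cells. TMM factors came from edgeR 4.0.16 (R 4.3.3), and all else was computed in Python 3.11.15 with scipy 1.17.1. The intervals and the fold rule were tested on simulated data.

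Gene positions are from GENCODE M21 (GRCm38) and promoter windows from RefSeq (GRCm38.p6). All 32 genes are named with values; genes of the other lists are named when among the 3 highest or 3 lowest ratios past the fold, except 1 gene that is not reported here. The 32 genes, the marker lists and the comparisons were chosen with earlier results of these data known. Alternatives were no upper gene limit, a mitochondrial limit of 0.1, TMM, per-cell means, at least 2 or 4 markers, thinning, leaving out doublets, a 2-fold limit and no CPM minimum.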

Additional observations from a re-analysis of the deposited data

How the results depend on the processing

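No paired analysis was possible because each gate has 1 library and the labels give no replicate numbers. Of 178 counts of called genes under alternatives, 150 stayed within 1.5 times the main count. Among these alternatives, leaving out doublets removed only 2 kept cells, and the mitochondrial limit of 0.1 left 3569 of 3572 GFP+ cones. Neither could do much to a count or a ratio, and each adds 96 ratios to the tally that follows. Of the 766 ratios of called genes that could be formed, these included, 763 kept their direction. The 3 that turned were *Slc16a1* in mitotic over non-mitotic progenitors (0.505 with cells thinned to 3200 UMIs) and, against the 16 GFP− cones without a progenitor marker UMI, an alternative chosen after the data were seen, *Pgk1* (1.5) and *Pdk2* (0.948). *Slc16a3* had no ratio against the same 16 cones, since they held no UMI of it, and is outside the 766. With 8 *Slc16a3* UMIs over all 61 GFP− cones, these 16 cells are too few to show whether its lower call holds in them. The cause of these changes was not tested.

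TMM scaling lowered the number of higher genes to 2 in GFP+ over GFP− cells, 3 in GFP+ cones over GFP− progenitors, 3 in GFP− cones over GFP− progenitors and 0 in stress-marker cones, and raised the lower genes there to 4. A 2-fold limit gave 2, 3, 3 and 3 higher genes for the gates, GFP+ cones, ganglion cells and GFP− cones over progenitors. Of all genes, 20.9%, 26.4%, 15.6% and 21.3% were then higher. GFP+ over GFP− cones gave 1 higher and 3 lower, against 13.5% and 3.82%. Stress-marker cones gave 0 in either direction (3.46% and 1.01% of all genes), as did mitotic progenitors (4.22% and 1.51%). In *Fabp7*-high cones 0 were higher (0.605%). With no CPM minimum all 32 genes were counted. Then 11 were higher in ganglion cells, 8 in GFP− cones and 9 in GFP+ over GFP− cones, against 26.4%, 28.4% and 46.2% of all genes. Stress-marker cones gave 8 higher and 4 lower, against 15.0% and 22.9%. In *Fabp7*-high cones 3 were lower (18.2% of all genes) and in mitotic progenitors 3 were higher (17.1%). Thinning gave 3 lower genes in stress-marker cones, against 7.94% of all genes. Lower genes in mitotic progenitors numbered 4 with per-cell means, 5 with at least 2 markers and 4 after thinning. Of all genes 7.58%, 6.66% and 9.30% were then lower. The higher ones numbered 0 with at least 4 markers, against 7.68%.

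The summed level moved beyond its counting interval to 9497 CPM in progenitors and 7215 CPM in ganglion cells without the upper limit on genes, and to 5931 CPM in GFP+ cones, 9694 CPM in progenitors and 7768 CPM in ganglion cells after thinning, which kept the order of the 3 groups. Among other alternatives added after the data were seen, the GFP+ library alone and the *Fabp7* split in the GFP− library left every direction as it was. Ratios moved beyond their counting intervals for 10 genes in the first and 3 in the second. In the GFP+ library alone *Pfkm* (1.21) and *Pfkl* (0.685) were no longer called. For GFP+ cones without a stress-marker UMI only the counts were formed, and they stayed at 5 higher and 11 lower. With 61 GFP− cones, a level under 9.15 CPM there is below the 3-UMI floor, so a difference between the cone groups in *Hk2* or *Pdk1* was not detectable at this depth, and the higher call of *Hk1* rests on 3 UMIs.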
